A study of Mus musculus with 6 samples.

Results

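The genes described here encode the receptors that sense microbial molecules, and the proteins that carry their signals, in mouse bone marrow progenitors. They were chosen by name: 35 genes in 5 roles, namely 12 Toll-like receptors, 4 receptor partners, 8 adaptors and kinases, 6 genes of the NOD and inflammasome branch and 5 of the C-type lectin branch. A single-gene feature was found for 31 of them, among 19938 named genes and 23410 tested features, and each of the 31 had 1 feature. Tlr5, Tlr11, Irak4 and Ripk2 were not analysed here. RNA of multipotent progenitors was measured on 6 Affymetrix MoGene 1.0 ST arrays, 3 labelled Lxn-/- and 3 labelled WT. The arrays labelled Lxn-/- come from C57BL/6 mice that lack exons 2 to 4 of latexin (Lxn) and its protein, and those labelled WT from C57BL/6 mice with the intact gene. All mice are described as female and 8 to 12 weeks old, and each array is a pool of 10 to 20 mice with about 100000 cells, so the spread between mice was not measured. The gate was lineage-negative, Sca1-positive and c-Kit-positive with CD34 and a receptor written as Flt2, although the series title speaks of long-term stem cells.

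Pattern recognition receptors bind molecules that microbes share, such as lipopolysaccharide, lipoproteins, foreign nucleic acids and fungal sugars. Toll-like receptors pass the signal through Myd88 and kinases of the Irak family, or through Ticam1, to Traf6, and so to NF-kB. C-type lectins signal through Syk and Card9, and NOD-like receptors act in the cytosol, some of them by assembling inflammasomes with Pycard. Mouse blood stem and progenitor cells carry Toll-like receptors, and their ligands can drive such cells towards myeloid fates.

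The arrays did not all follow their labels. Xist, the RNA that silences an X chromosome in female cells, had log2 values of 6.86, 13.17 and 5.85 on arrays 1, 2 and 3 labelled Lxn-/-, against 13.13 to 13.23 on the WT arrays, and Y-linked Eif2s3y had 8.57, 3.83 and 9.36, against 3.68 to 3.97. Arrays 1 and 3 labelled Lxn-/- thus carried male signal. Lxn had 8.03, 8.53 and 8.61 on the arrays labelled Lxn-/- and 8.56, 8.70 and 8.58 on the WT arrays, a log2 change of -0.22 (SE 0.15, limma adjusted p 0.459). No source used here says whether its probes lie inside the deleted exons, so the values do not check the labels. The gate markers Kit, Flt3 and Cd34 had log2 values of at least 11.48 on every array. Kit was 11.48 on array 1 labelled Lxn-/-, against 12.10 to 12.15 on the other arrays labelled Lxn-/- and 12.05 to 12.19 on the WT arrays. Cd48, which these progenitors also carry, was 11.04, 10.79 and 11.00 on the arrays labelled Lxn-/- and 10.70, 10.41 and 10.64 on the WT arrays. Ly6a, which encodes Sca-1, was not analysed here.

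Of the 31 pattern recognition genes, 0 passed an adjusted p of 0.05 in limma, as did 0% of all features. At an unadjusted p under 0.05, 4 were higher in the arrays labelled Lxn-/- (Card9, Ly86, Myd88 and Tlr7), where 5.06% of all features were, and 2 were lower (Tlr8 and Clec4n), where 9.23% of all features were. These are 12.9% and 6.45% of the 31. Over all features the split was 1185 higher and 2161 lower, and it turned to 2190 higher and 939 lower when each array was centred on its median. Among the 31 genes the same centring gave 4 higher and 1 lower. In 4 genes (Card9, Ly86, Myd88 and Traf6) every array labelled Lxn-/- lay above every WT array (background 8.54%), and in Tlr8 and Clec4n every one lay below (background 13.0%). The median log2 change of the 31 was -0.001, against -0.038 over all features, and 15 of them had a higher mean. For 27 of the 31, the 95% interval of the change lay within 1.5-fold in either direction. The intervals of Card9, Ly86, Ly96 and Tlr7 reached beyond it. In sorted pools, fewer cells that carry a transcript and less RNA per cell cannot be told apart.

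**Figure D1:**
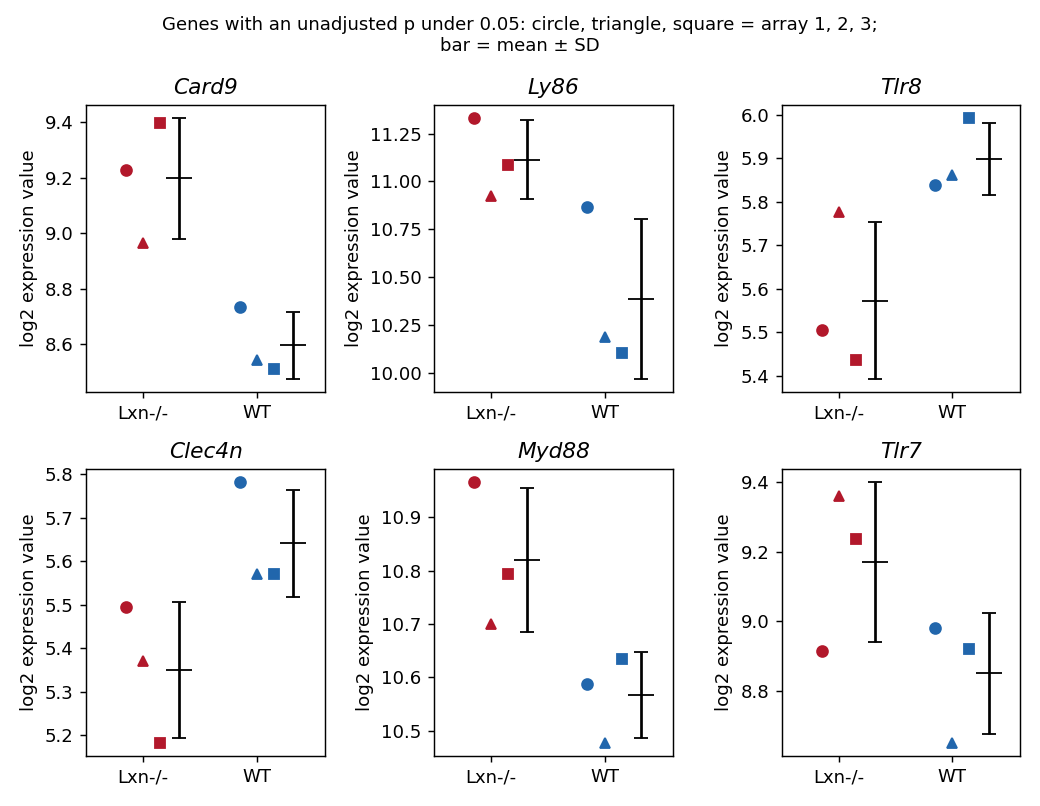
Log2 expression values of the 6 genes with an unadjusted p under 0.05, on the arrays labelled Lxn-/- (red, left) and WT (blue, right); circles, triangles and squares are arrays 1, 2 and 3, and black bars are means with the SD of 3 arrays. The groups do not overlap in Card9, Ly86, Tlr8, Clec4n and Myd88, and overlap in Tlr7, where array 1 labelled Lxn-/- is at 8.92.

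Card9 was the gene with the smallest p of the set. It encodes the adaptor that links Syk-coupled receptors to Bcl10 and Malt1. Its log2 values were 9.23, 8.96 and 9.40 on the arrays labelled Lxn-/- and 8.73, 8.54 and 8.51 on the WT arrays. All 3 arrays labelled Lxn-/- lay above the WT arrays, with array 2, the one without male signal, nearest to them. The log2 change was 0.60 (SE 0.12), a 1.52-fold higher mean, with an unadjusted p of 9.62e-04 and an adjusted p of 0.340 in limma. Without array 2 labelled Lxn-/- Card9 passed, with a change of 0.72 (SE 0.12) and an adjusted p of 0.0237, where 0.619% of all features passed. That comparison sets only arrays with male signal against WT arrays without it, so label and sex cannot be told apart there. Xist and Eif2s3y were among the features that passed. Array 2 alone differed from WT by 0.37 (SE 0.14, adjusted p 0.349). Over all alternatives the adjusted p ran between 0.0237 and 0.644, and the change between 0.37 and 0.72.

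Ly86 had the largest change of the set. Its product, MD-1, is the secreted partner that CD180 needs to reach the cell surface. The log2 values were 11.33, 10.92 and 11.09 on the arrays labelled Lxn-/- and 10.86, 10.19 and 10.10 on the WT arrays. The groups were separated by the small gap between array 2 labelled Lxn-/- and WT array 1, while the other WT arrays lay well below. The change was 0.73 (SE 0.20), a 1.66-fold higher mean, with an unadjusted p of 0.0049 and an adjusted p of 0.340. It was 0.83 (SE 0.20) without array 2 labelled Lxn-/- and 0.54 (SE 0.26) with array 2 alone, neither passing after adjustment (0.174 and 0.419). CD180 itself, the Toll-like receptor relative that binds MD-1, did not share this pattern. Cd180 had 10.97, 11.48 and 11.23 on the arrays labelled Lxn-/- and 11.34, 11.43 and 11.39 on the WT arrays, a change of -0.16 (SE 0.13). Its sign was negative without array 2 labelled Lxn-/- (-0.29, SE 0.12) and positive with array 2 alone (0.09, SE 0.12).

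Some monocyte genes separated the groups as Card9 and Ly86 did. Of 10 monocyte and macrophage markers 9 were measured, of which 4 had a higher and 5 a lower mean, with a median change of -0.04. Csf1r (0.50), Cd68 (0.32) and Ccr2 (0.75) were higher on all 3 arrays labelled Lxn-/- than on any WT array. Cd5l (-0.53) and Ms4a7 (-0.11) were lower on all 3. In the level deciles of Csf1r, Cd68 and Ccr2, 18.7%, 18.7% and 16.1% of features were higher without overlap. In those of Cd5l and Ms4a7, 23.7% and 18.1% were lower without overlap. The summed level of the list on the linear scale was 5621, 7058 and 7054 in the arrays labelled Lxn-/-. In the WT arrays it was 5789, 5973 and 6065. Array 1 labelled Lxn-/- lay below the WT arrays in this sum, in which Lyz2, the brightest gene of the list, weighs most. Lyz2 had 11.23, 11.89 and 11.84 on the arrays labelled Lxn-/- and 11.47, 11.74 and 11.89 on the WT arrays. Array 1 was the lowest of the 6 arrays for 3 of the 9 genes and the highest for Ccr2. The part of these cells in the values of Card9 and Ly86 was not tested. The B cell list (6 of 7 measured) summed to 2046 to 2280 and 2030 to 2326, and the dendritic cell list (7 of 7) to 3439 to 3839 and 3314 to 3863. Both lists overlapped between the groups. No marker value on this scale is a true 0.

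Myd88, the adaptor of nearly all Toll-like receptors, was the other signalling gene at an unadjusted p under 0.05. It had 10.97, 10.70 and 10.79 on the arrays labelled Lxn-/- and 10.59, 10.48 and 10.63 on the WT arrays. The groups did not overlap, and array 2 labelled Lxn-/- was again the nearest to WT. The change was 0.25 (SE 0.10), 1.19-fold, with an unadjusted p of 0.0314 and an adjusted p of 0.340. It was 0.31 (SE 0.12) without array 2 and 0.13 (SE 0.13) with array 2 alone. The limma unadjusted p of Myd88 was 0.084 without array 1 labelled Lxn-/- and 0.055 without array 3. After quantile normalization the change was 0.16, with a limma unadjusted p of 0.116. Card9, Ly86 and Myd88 lie in the part of the level range where many features were higher: groups did not overlap, with higher values in the arrays labelled Lxn-/-, in 16.1% of features of the level decile of Card9 and in 19.1% of that of Ly86 and Myd88.

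The promoters of these 3 genes are shown because they had higher means, an unadjusted p under 0.05 and no overlap between the groups. Promoters of 26 of the 31 genes were in the RefSeq table of GRCm38.p6, and the 250 bases before each start were read. Capitals mark matches, on either strand, to GGAAGT, the core of many ETS family sites, and to an interferon response core (GAAA, any 2 bases, then GAAA). They also mark matches to TGANTCA, an AP-1 core, on either strand, and to the NF-kB motif by its usual consensus. The NF-kB motif was sought on the printed strand only. Lower case holds no match of the kinds sought.
Card9, chr2:26360910-26361159, minus strand: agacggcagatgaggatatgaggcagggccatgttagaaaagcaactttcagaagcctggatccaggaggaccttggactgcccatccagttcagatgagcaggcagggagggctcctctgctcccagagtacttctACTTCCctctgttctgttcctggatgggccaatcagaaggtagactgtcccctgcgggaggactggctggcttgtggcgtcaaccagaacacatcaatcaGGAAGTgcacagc
Ly86, chr13:37345095-37345344, plus strand: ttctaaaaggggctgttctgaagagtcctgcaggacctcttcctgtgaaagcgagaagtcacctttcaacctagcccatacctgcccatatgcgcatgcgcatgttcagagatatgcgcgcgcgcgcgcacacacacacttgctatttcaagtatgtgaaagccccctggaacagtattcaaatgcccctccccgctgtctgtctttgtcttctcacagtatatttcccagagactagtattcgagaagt
Myd88, chr9:119340019-119340268, minus strand: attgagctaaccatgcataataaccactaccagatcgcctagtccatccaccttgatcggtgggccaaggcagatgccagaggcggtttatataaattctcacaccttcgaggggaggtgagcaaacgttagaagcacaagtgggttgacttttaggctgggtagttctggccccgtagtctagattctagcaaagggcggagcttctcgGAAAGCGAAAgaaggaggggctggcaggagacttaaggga
Card9 held 2 matches to GGAAGT, which start 113 and 13 bases before the gene's start and of which the first is read on the opposite strand. Myd88 held 1 match to the interferon response core, 40 bases before the start, and Ly86 held no match. Nor did Traf6, whose groups did not overlap either but whose unadjusted p was 0.272. Over all 32851 windows, GGAAGT was found in 19.7%, the interferon response core in 2.98%, TGANTCA in 6.75% and the NF-kB motif in 5%. Among the 26 genes the counts were 9, 2, 1 and 3 in the same order of motifs. The NF-kB share and count are for 1 strand, the others for both. A match is a run of letters and not a measured site.

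**Figure D2:**
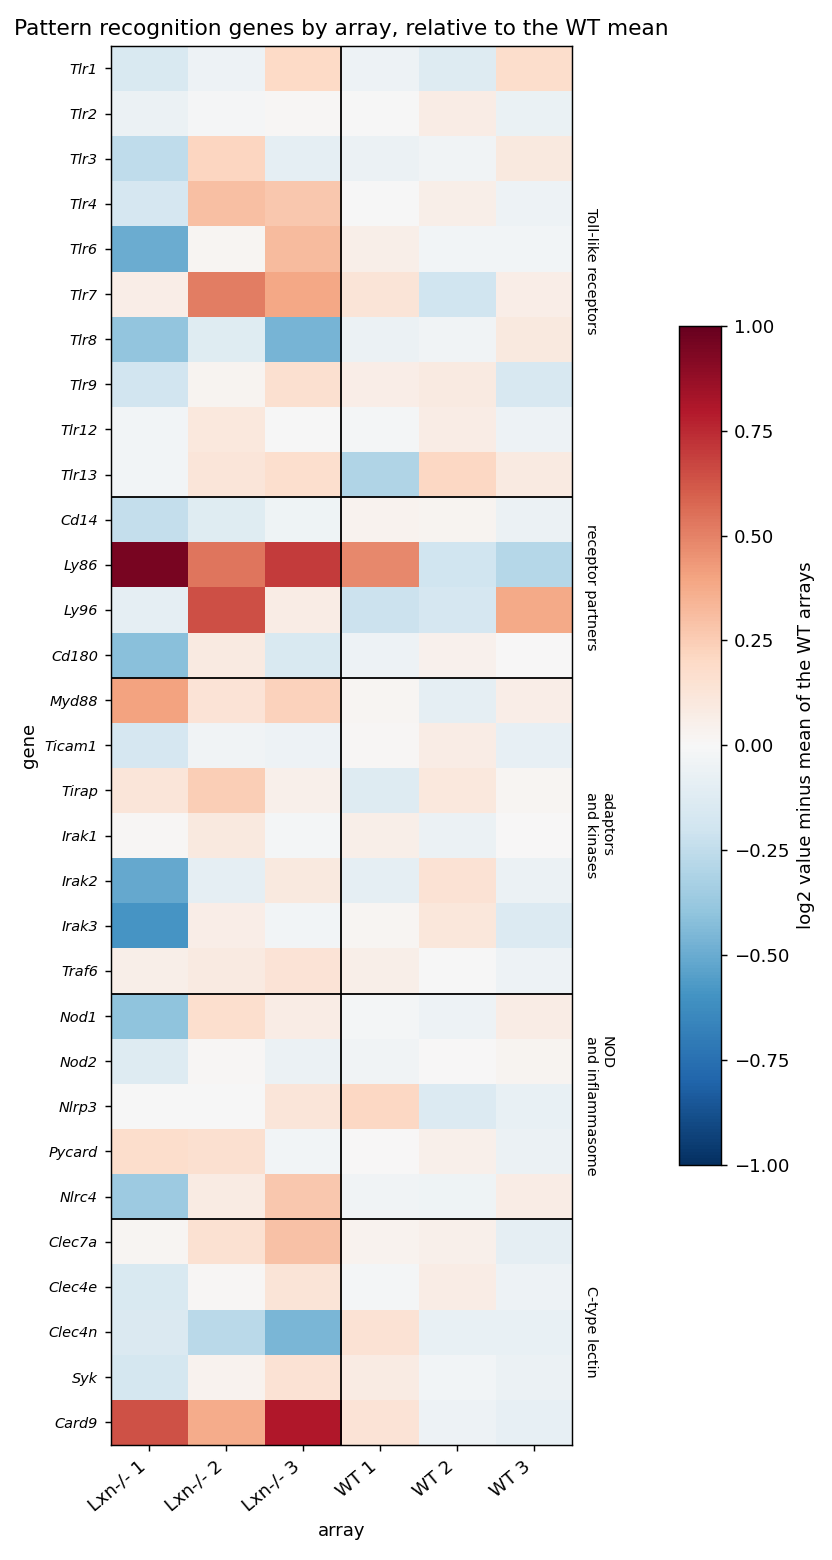
Log2 value minus the mean of the 3 WT arrays for the 31 genes (rows, by role) on each array (columns), red for above and blue for below the WT mean. Array 1 labelled Lxn-/- is blue in most rows and is the lowest array for 15 genes, while Card9, Ly86 and Myd88 are red on all 3 arrays labelled Lxn-/-.

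The Toll-like receptors differed little as a group. Of 10 measured, 4 had a higher and 6 a lower mean in the arrays labelled Lxn-/-, with a median change of -0.001 and a range of -0.32 to 0.32. Tlr7 and Tlr8, endosomal receptors for single-stranded RNA that are neighbours on the X chromosome, marked the ends of that range. Tlr1, Tlr3, Tlr4, Tlr6, Tlr8, Tlr12 and Tlr13 lie in level deciles 2 to 5, whose median changes over all features were -0.15 to -0.12. After quantile normalization the median change of the Toll-like receptors was 0.10. Tlr7 had 8.92, 9.36 and 9.24 on the arrays labelled Lxn-/- and 8.98, 8.65 and 8.92 on the WT arrays. Array 1 labelled Lxn-/- lay inside the WT range and the other arrays with that label above it. The change was 0.32 (SE 0.14, unadjusted p 0.0438, adjusted p 0.344). It was 0.45 (SE 0.12) without array 1, 0.23 (SE 0.14) without array 2 and 0.51 (SE 0.16) with array 2 alone.

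Tlr8 ran the other way at a dim feature. Its values were 5.51, 5.78 and 5.44 on the arrays labelled Lxn-/- and 5.84, 5.86 and 5.99 on the WT arrays. The groups did not overlap, and arrays 1 and 3 labelled Lxn-/-, which carry male signal, were the lowest. The change was -0.32 (SE 0.11, unadjusted p 0.0162, adjusted p 0.340), -0.43 (SE 0.11) without array 2 and -0.12 (SE 0.13) with array 2 alone. In its level decile the median change of all features was -0.14, and 23.7% of features were lower without overlap. The other X-linked receptor gene, Tlr13, which senses bacterial ribosomal RNA, had 7.12, 7.26 and 7.31 on the arrays labelled Lxn-/- and 6.84, 7.35 and 7.23 on the WT arrays. Its change of 0.09 (SE 0.13) was within the spread of the WT arrays.

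The surface receptors for bacterial products were near the WT level. Tlr2, which pairs with Tlr1 or Tlr6 to bind lipoproteins, had 8.60, 8.65 and 8.67 on the arrays labelled Lxn-/- and 8.65, 8.73 and 8.59 on the WT arrays. The groups overlapped almost wholly, and the 95% interval of the change of -0.02 was -0.21 to 0.17. Tlr4, the lipopolysaccharide receptor, had 6.88, 7.34 and 7.32 on the arrays labelled Lxn-/- and 7.05, 7.10 and 6.99 on the WT arrays. Arrays 2 and 3 lay above the WT arrays and array 1 below them. The change was 0.13 (SE 0.13, adjusted p 0.600), and 0.28 (SE 0.08, adjusted p 0.136) without array 1. Tlr6 had 6.86, 7.37 and 7.67 on the arrays labelled Lxn-/- and 7.41, 7.32 and 7.33 on the WT arrays, with array 1 below the WT arrays, array 2 among them and array 3 above, and a change of -0.05 (SE 0.18). Its neighbour Tlr1 differed by -0.001 (SE 0.12).

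The remaining Toll-like receptors sense nucleic acids or parasite protein. Tlr3, for double-stranded RNA, differed by -0.04 (SE 0.13), with 6.29 on array 1 labelled Lxn-/- below all other arrays and 6.77 on array 2 above them. Tlr9, for unmethylated DNA, differed by -0.002 (SE 0.12) and Tlr12, for profilin of Toxoplasma, by 0.03 (SE 0.09). In all 3 genes the groups overlapped.

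The partners of the lipopolysaccharide receptor did not follow Ly86. Ly96 encodes MD-2, which forms the binding pocket with TLR4, and had 8.84, 9.57 and 9.0 on the arrays labelled Lxn-/- and 8.72, 8.77 and 9.31 on the WT arrays. A single array in each group was high, array 2 labelled Lxn-/- and WT array 3. The change was 0.21 (SE 0.21, adjusted p 0.608), -0.01 (SE 0.17) without array 2 labelled Lxn-/- and 0.64 (SE 0.22, adjusted p 0.334) with array 2 alone. Cd14, which delivers lipopolysaccharide to the receptor, had 6.81, 6.92 and 7.0 on the arrays labelled Lxn-/- and 7.07, 7.07 and 6.98 on the WT arrays. Only array 3 labelled Lxn-/- reached the WT range. The change was -0.13 (SE 0.09, adjusted p 0.457) at a level where the median change of all features was -0.15.

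**Figure D3:**
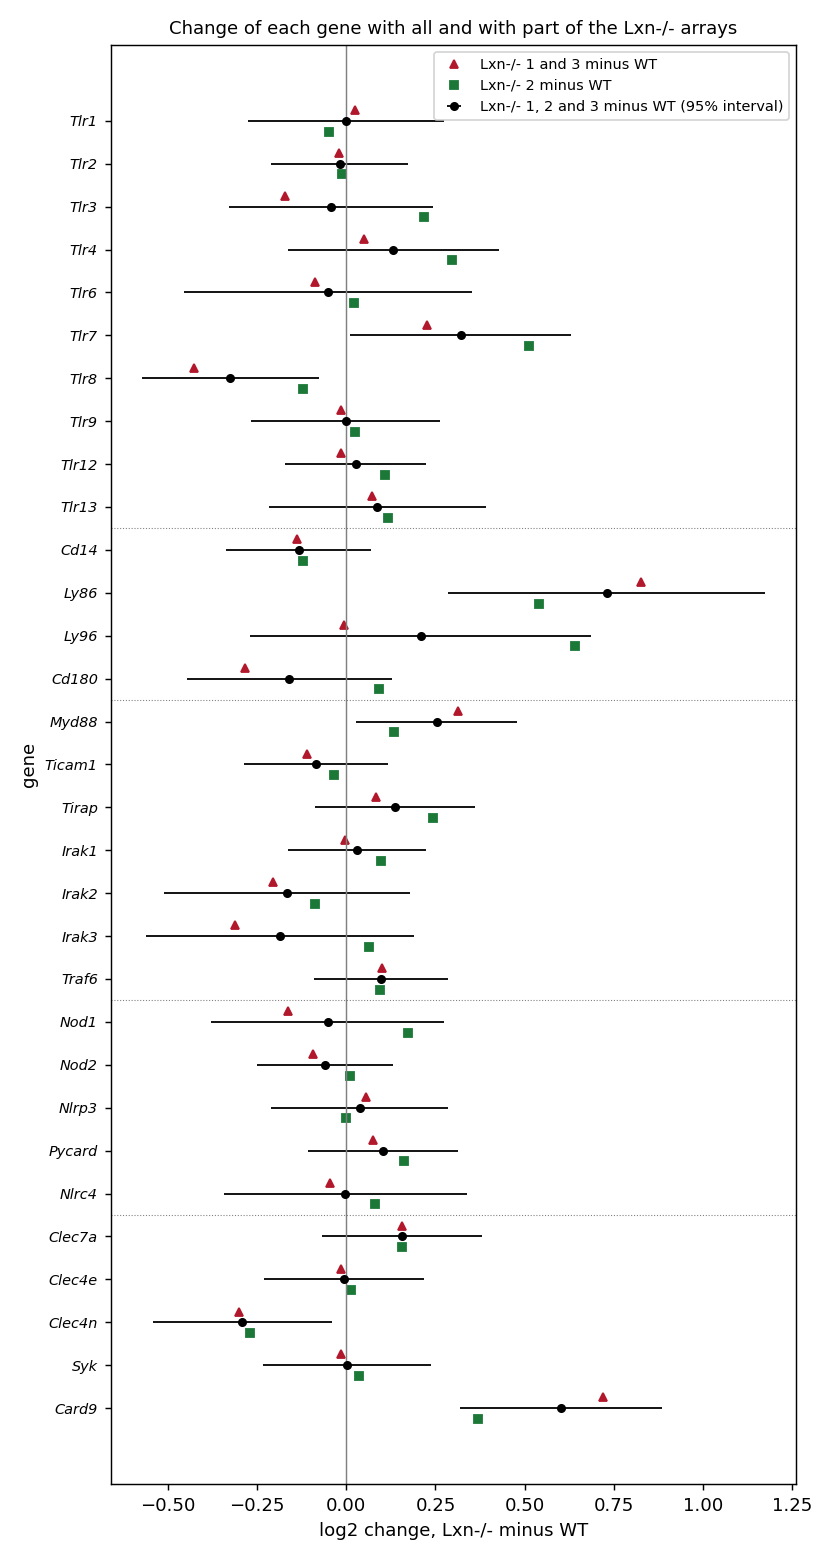
Log2 change of each of the 31 genes, with the 95% interval, from all arrays labelled Lxn-/- (black), from arrays 1 and 3 (red triangles) and from array 2 alone (green squares), each minus the 3 WT arrays. Card9 and Ly86 are right of 0 in all 3 versions, while the signs of Cd180, Irak3, Nod1 and Tlr3 are among those that differ between array 2 and the pair of arrays with male signal.

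The 7 measured adaptors and kinases, Myd88 included, had changes between -0.19 and 0.25, with a median of 0.03. Traf6, the ubiquitin ligase downstream of the Irak kinases, had 10.33, 10.36 and 10.41 on the arrays labelled Lxn-/- and 10.32, 10.26 and 10.21 on the WT arrays. The groups did not overlap, by less than 0.01 between the nearest arrays, and the change was 0.10 (SE 0.08, adjusted p 0.546). Tirap, the adaptor that brings Myd88 to Tlr2 and Tlr4, differed by 0.14 (SE 0.10), Irak1 by 0.03 (SE 0.09) and Ticam1, the Myd88-independent adaptor of Tlr3 and Tlr4, by -0.08 (SE 0.09). Irak3, an inhibitor of the pathway, had 9.34, 10.00 and 9.91 on the arrays labelled Lxn-/- and 9.96, 10.05 and 9.80 on the WT arrays. Array 1 was low and the others were within the WT range, so the change of -0.19 (SE 0.17, adjusted p 0.561) was 0.02 (SE 0.10) without array 1. Irak2, a kinase of the same family, had the same low array, with 8.34, 8.76 and 8.95 on the arrays labelled Lxn-/- and 8.76, 9.0 and 8.79 on the WT arrays, and a change of -0.17 (SE 0.15) that was 0.01 (SE 0.11) without array 1.

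No gene of the NOD and inflammasome branch reached an unadjusted p of 0.05, and the smallest of the 5 was 0.298, for Pycard. Nlrp3, the sensor of a broad range of cell damage signals, had 8.15, 8.16 and 8.28 on the arrays labelled Lxn-/- and 8.37, 8.02 and 8.08 on the WT arrays. The groups overlapped, with a change of 0.04 (SE 0.11) and a 95% interval of -0.21 to 0.29. Pycard, the adaptor that joins sensors to caspase-1, differed by 0.10 (SE 0.09). Nlrc4, which acts with Naip proteins on flagellin, had 6.60, 7.04 and 7.23 on the arrays labelled Lxn-/- and 6.92, 6.92 and 7.03 on the WT arrays. Nod1, a receptor for peptidoglycan fragments, had 8.06, 8.63 and 8.53 on the arrays labelled Lxn-/- and 8.44, 8.41 and 8.53 on the WT arrays. In both genes array 1 labelled Lxn-/- was the lowest of the 6, and their changes were -0.003 (SE 0.15) and -0.05 (SE 0.14). Nod2, the receptor for muramyl dipeptide, differed by -0.06 (SE 0.08).

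Of the C-type lectin branch, the receptors and Syk gave a mixed picture beside Card9. Clec4n encodes dectin-2, a receptor for fungal mannans. It had 5.50, 5.37 and 5.18 on the arrays labelled Lxn-/- and 5.78, 5.57 and 5.57 on the WT arrays. The groups did not overlap, and the change was -0.29 (SE 0.11, unadjusted p 0.0271, adjusted p 0.340), -0.30 (SE 0.13) without array 2 and -0.27 (SE 0.14) with array 2 alone. It lies in the lowest level decile of all features, of which 18.1% were lower without overlap and whose median change was -0.11. Clec7a, which encodes the beta-glucan receptor dectin-1, had 7.0, 7.13 and 7.27 on the arrays labelled Lxn-/- and 7.01, 7.03 and 6.89 on the WT arrays. Arrays 2 and 3 lay above the WT arrays and array 1 within them, with a change of 0.16 (SE 0.10, adjusted p 0.442). In its level decile the median change of all features was -0.15. After quantile normalization the change of Clec7a was 0.27, with a limma unadjusted p of 0.033. Clec4e, or Mincle, a receptor for mycobacterial glycolipid, differed by -0.01 (SE 0.10), and Syk, the kinase that these receptors share, by 0.002 (SE 0.10).

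**Figure D4:**
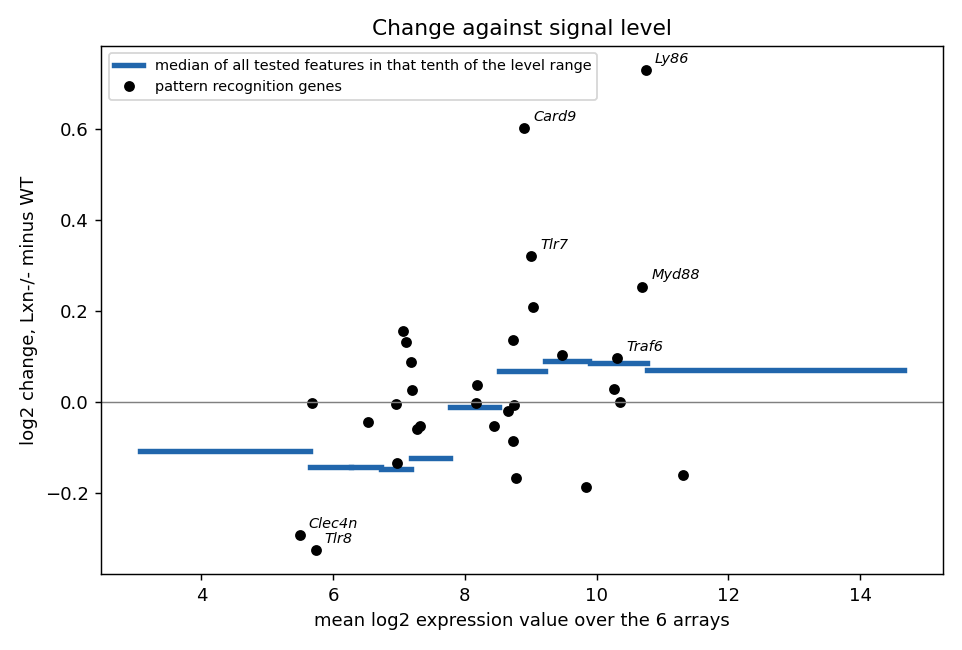
Log2 change of the 31 genes (black points) against their mean log2 value over the 6 arrays, with the median change of all tested features in each decile of level (blue bars). The blue bars lie below 0 in the dim deciles (-0.15 to -0.11 in the lowest 5) and above 0 in the bright ones; Tlr8 and Clec4n sit in the dim part and Card9, Ly86, Tlr7 and Myd88 in the bright part.

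Array 1 labelled Lxn-/- was the lowest of the 6 arrays for 15 of the 31 genes (48.4%), where it was the lowest for 17.9% of all features. Among features above the median level it was the lowest for 25.1%, against 8 of 19 of the pattern recognition genes there, and below the median for 10.7%, against 7 of 12. The median of the 31 genes relative to the WT mean was -0.15 on array 1 and 0.09 and 0.10 on arrays 2 and 3 labelled Lxn-/-, against 0.01, -0.01 and -0.05 on the WT arrays. Without array 1, 25 of the 31 had a higher mean than WT, where 45.2% of all features did, and with all arrays 15 had, where 42.2% did. The summed level of the mast cell and basophil markers (5 of 5 measured) was 1757, 3818 and 4262 on the arrays labelled Lxn-/- and 4809 to 5600 on the WT arrays, below WT on all 3 and lowest on array 1. All 5 had a lower mean, and Mcpt8 (-0.72) and Prss34 (-1.02) were lower on all 3 arrays labelled Lxn-/- than on any WT array. Of all features 13.0% were lower without overlap, and 1.24% in the level decile of both genes. The part of cell makeup in the values was not tested. In limma 0 of the 31 genes passed after adjustment without array 1, and 5 reached an unadjusted p under 0.05 as higher without array 1, where 6.31% of all features did, and 2 as lower, where 17.4% did.

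The counts were also taken for the arrays labelled Lxn-/- with and without male signal, with no test of the difference between them. With arrays 1 and 3, 3 of the 31 genes were higher at an unadjusted p under 0.05 (Card9, Ly86 and Myd88), where 5.48% of all features were, and 3 were lower (Tlr8, Clec4n and Cd180), where 5.85% were. With array 2 alone, which is assumed to vary like the WT arrays, 4 were higher (Tlr7, Ly96, Card9 and Tlr4), where 3.11% of all features were, and 0 were lower, where 9.70% were. After adjustment 0 of the 31 passed with array 2 alone, where 0.0128% of all features did. Card9 (0.72 and 0.37), Ly86 (0.83 and 0.54) and Clec4n (-0.30 and -0.27) had changes of the same sign with arrays 1 and 3 and with array 2 alone. With array 2 alone 23 of the 31 genes had a higher mean than WT, where 45.9% of all features did, and with arrays 1 and 3, 12 had, where 41.0% did. Whether sex has a part in these values was not tested.

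The other genes of these pathways formed a list of 79, of which 73 were measured. By limma 0 passed after adjustment, and at an unadjusted p under 0.05 there were 6 higher and 1 lower, 8.22% and 1.37% of the 73, against 5.06% and 9.23% of all features. Most of the 73 lie in level deciles 7 to 10, where 4.44% to 10.9% of features were higher and 0.470% to 2.95% lower. In deciles 1 to 5, 1.07% to 2.78% were higher and 11.6% to 17.6% lower. In Toll-like receptor trafficking and signalling, 2 of 26 were higher. They were Hsp90b1, a chaperone that folds these receptors (0.28, SE 0.11), and Lbp, the lipopolysaccharide binding protein (0.26, SE 0.10). Of 21 inflammasome and NOD-like genes 1 was higher, Casp1, the protease that matures interleukin-1 beta. Casp1 had 8.62, 9.02 and 9.16 on the arrays labelled Lxn-/- and 8.48, 7.77 and 8.65 on the WT arrays. Array 1 labelled Lxn-/- lay inside the WT range, and the change was 0.63 (SE 0.23, adjusted p 0.340). Of 18 C-type lectin genes, Clec10a, a galactose-binding receptor, was higher (0.39, SE 0.13), and Mrc1, the macrophage mannose receptor, was lower (-0.40, SE 0.16).

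Of the 8 cytosolic nucleic acid sensing genes, 2 were higher, Cgas and Sting1. Cgas makes the cyclic dinucleotide that Sting1 detects. Cgas had 8.13, 8.26 and 8.16 on the arrays labelled Lxn-/- and 8.02, 7.83 and 7.88 on the WT arrays, and Sting1 had 11.92, 11.90 and 11.80, against 11.60, 11.56 and 11.71. In both genes all 3 arrays labelled Lxn-/- lay above all WT arrays, array 2 included. Of all features 8.54% were higher without overlap, with 9.57% in the level decile of Cgas and 15.25% in that of Sting1. Their changes were 0.27 (SE 0.09) and 0.25 (SE 0.09), each with an adjusted p of 0.340 in limma. With array 2 alone they were 0.35 and 0.28, and without it 0.24 and 0.24. The other 6 genes of that list did not reach an unadjusted p under 0.05.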

How the data were processed

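Per the labels' protocols, each of the 6 arrays took 100 ng of RNA from sorted progenitors. The authors deposited log2 expression values, made by RMA per the series text, and the submitters' processing notes name Partek 6.0. The log2 scale was read from the range of the values (2.65 to 14.78). No source used here gives the RMA settings, scan dates or build. The medians of the tested features ran between 7.73 and 7.84 over the arrays, so the values do not share 1 distribution, and total RNA per cell is not measured.

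Gene names came from the annotation of the array's probes, updated by Entrez identifier: 21789 carry 1 symbol, 1621 several and 12147 none. The 23410 with a symbol were tested. Arrays labelled Lxn-/- were compared with WT by limma 3.58.1 in R 4.3.3 (two-sided, Benjamini-Hochberg over all tested features, threshold 0.05). The fit was tested on simulated data with independent noise per feature. Those data held no shift by level and no mix of sexes, so that test does not cover them. The number of arrays limits the precision. All 31 measured genes are named. Values per array are given for those with an unadjusted p under 0.05, those whose groups do not overlap, and Tlr2, Tlr4, Myd88, Nlrp3 and Clec7a, and also where a change rests on single arrays. Of the other pathway genes, those under 0.05 are named, up to 4 per group. The genes and lists were chosen with earlier results of these data known. The alternatives were a replicate block, each array left out, arrays 1 and 3 labelled Lxn-/- left out, other normalizations, filters, variance models, thresholds and tests. Matplotlib 3.10.9 drew the figures.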

Additional observations from a re-analysis of the deposited data

How the results depend on the processing

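Leaving out each array in turn, the features past an adjusted p of 0.05 in limma numbered 0 to 145 (145 without array 2 labelled Lxn-/-, 1 without array 3 labelled Lxn-/- or WT array 3), those higher at an unadjusted p under 0.05 numbered 593 to 1478 and those lower 939 to 4063. The pattern recognition genes higher at that level numbered 2 to 5 (2 without array 3 labelled Lxn-/- or without WT array 2) and those lower 0 to 3 (0 without array 3 labelled Lxn-/-, 1 without WT array 1 or 3). Without arrays 1 and 3 labelled Lxn-/- together, where the lone array is assumed to vary like the WT arrays, 3 features passed, 727 were higher at an unadjusted p under 0.05, 0 of the pattern recognition genes were lower, and the medians of the receptor partners and of the adaptors and kinases were 0.32 and 0.0938. Requantiling gave 949 lower features, 0 lower pattern recognition genes and a median of -0.0576 for the adaptors and kinases. It left 3 higher pattern recognition genes, Card9, Ly86 and Clec7a, without Myd88 and Tlr7. Centring on the median gave 2190 higher and 939 lower features, 1 lower pattern recognition gene and an adaptor median of 0.0856. Features above the median level held 356 lower features and 0 lower pattern recognition genes, because Tlr8 and Clec4n are dim. Array weights gave 4099 lower features. The equal-variance two-sample test gave 2 higher and 1 lower pattern recognition genes and passed 0 features after adjustment. Otherwise the causes were not tested. Over 16 alternatives 13 of the 31 genes kept the sign of their change in each alternative that could be computed, among them Card9, Ly86, Myd88, Tlr7, Tlr8 and Clec4n. The other 18 turned sign in at least 1, in no case at an unadjusted p under 0.05.

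With the replicate number as a block, 1 feature passed. The deviations of same-numbered arrays correlated at 0.076, -0.008 and -0.006, and 1 of 3 arrays labelled Lxn-/- correlated best with its own number, so the numbers were not taken as pairs. The block left 3 pattern recognition genes higher and 2 lower at an unadjusted p under 0.05.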

Other observations

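Tlr7 and Tlr8 lie next to each other among the protein-coding genes of the X chromosome, as Tlr1 and Tlr6 do on chromosome 5. In the first pair the differences between arrays labelled Lxn-/- and WT had opposite signs (0.32 and -0.32). In the second, Tlr6 spanned 6.86 to 7.67 over the arrays labelled Lxn-/- and 7.32 to 7.41 over the WT arrays, while Tlr1 spanned 5.53 to 5.87 and 5.55 to 5.85. Irak1, also on the X chromosome, had 10.26, 10.34 and 10.22 on the arrays labelled Lxn-/- and 10.30, 10.19 and 10.25 on the WT arrays, so the arrays with male signal lay within the range of the others.

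The granule markers of granulocyte and monocyte progenitors (5 of 5 measured) summed on the linear scale to 22061, 23270.1 and 28120.4 on the arrays labelled Lxn-/- and to 23246, 25863 and 18719 on the WT arrays, and the neutrophil markers (8 of 8) to 8354, 11089.6 and 10736 against 6923, 10460.3 and 8761. Both lists overlapped between the groups. The erythroid markers (4 of 7 measured, all 4 with a lower mean) summed to 770, 787 and 798 on the arrays labelled Lxn-/- and to 863, 1230.2 and 846 on the WT arrays, without overlap. The megakaryocyte markers (4 of 5 measured, all 4 with a lower mean) summed to 958, 1241 and 1164 on the arrays labelled Lxn-/- and to 1241, 1670.1 and 1307 on the WT arrays, where the nearest arrays differed by less than 1. The part of these cells in the values of the pattern recognition genes was not tested.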
